A study of Homo sapiens with 18 samples.

Results

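The step from 100 to 1000 nM YKL-5-124, a covalent inhibitor of the kinase CDK7, was read in cultures labelled as XG1, a human multiple myeloma line. The 3 libraries whose names give the high dose, 1000 nM for 6 h, were set against the 3 whose names give the low dose, 100 nM for 6 h. These are 6 of the 18 libraries in the series. The other 12 are 3 XG1 libraries in DMSO, the solvent, and 9 libraries of AMO1, another myeloma line, in DMSO or at the same doses. Cells of both lines grew in multiwell plates without further labelled alterations, and the series title describes the lines as resistant. Libraries were made by a 3′ end method and every gene was given a value in FPKM. The tables held 26249 genes, and the 12204 that averaged 1 FPKM or more in any of the 6 groups were tested. A gene was called where its adjusted p from limma was under 0.05. Log2 differences are 1000 minus 100 nM on the log2(FPKM + 1) scale, which understates the differences of low genes. Read counts were not used here, so the depth behind the values is unknown. The labels do not say that replicates came from separate cultures, so the p-values measure the spread between these libraries only.

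CDK7 pairs with cyclin H and MNAT1 to form the CDK-activating kinase. Within TFIIH this trimer phosphorylates the tail of RNA polymerase II at the start of transcription, and on its own it activates the kinases that drive the cell cycle. E2F transcription factors, released when those kinases inactivate the RB protein, turn on the genes of DNA replication at the G1/S boundary. Multiple myeloma arises from plasma cells, which secrete antibodies, and MYC is commonly active in it.

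The libraries labelled XG1 went against their label. Of 11 plasma cell markers, 10 were in the tables, and IRF4, PRDM1, CD38, SLAMF7 and POU2AF1 lay under 1 FPKM in all 6 libraries compared. The summed plasma cell markers were 44.4 to 55.2 FPKM at 1000 nM and 45.4 to 66.4 FPKM at 100 nM. Of 13 erythroid markers, 10 were at 10 FPKM or more in all 6, with sums of 3839 to 4608 FPKM at 1000 nM and 4183 to 4247 FPKM at 100 nM. These ranges overlapped between the doses. Stromal and epithelial markers summed to 78.6 to 92.1 FPKM at 1000 nM and 98.3 to 109 FPKM at 100 nM, and myeloid markers to 19.4 to 26.7 FPKM at 1000 nM and 27.7 to 32.6 FPKM at 100 nM. Both of these sums were lower in every 1000 nM library, and their part in the results was not tested. Over all genes tested 16.5% lay lower in every 1000 nM library than in every 100 nM library. COL1A1, COL3A1, CD14 and MPO lay under 1 FPKM in all 6 libraries, so these sums rest on the remaining markers. T cell markers summed to 8.73 to 33.8 FPKM at 1000 nM and 11.2 to 17.1 FPKM at 100 nM. B cell markers summed to 2.71 to 3.42 FPKM at 1000 nM and 2.26 to 3.62 FPKM at 100 nM, and both overlapped.

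The 1000 nM libraries were also lower in the sum of their gene values. Their gene values summed to 789178, 792905 and 741443 FPKM, against 822225, 859055 and 806990 FPKM in the 100 nM libraries. The groups did not overlap (exact permutation test, two-sided, p = 0.1, the smallest that 3 against 3 allows). The DMSO libraries summed to 957143, 857700 and 771880 FPKM, a range that overlapped with both doses. The synthetic spike-in RNAs summed to 118565 ± 5115 FPKM at 1000 nM and 118571 ± 2083 FPKM at 100 nM (SD, n = 3 each), and these ranges overlapped. No source used here says whether the deposited values were already scaled to the spike-ins, so these sums are not read as an amount of RNA. In bulk samples fewer cells and less RNA per cell cannot be told apart. A 1000 nM library, replicate 2, stood apart. It had 9284 genes at 1 FPKM or more, against 10155 and 10207 in the other 1000 nM libraries and 10398, 10562 and 10276 at 100 nM. Its median log2 ratio to the mean of all 18 libraries was -0.45, beside -0.25 and -0.14 in replicates 1 and 3 at 1000 nM and -0.16, -0.01 and -0.12 at 100 nM. By this ratio the 2 doses overlapped (exact permutation test, two-sided, p = 0.2). Some results are therefore also given without 1000 nM replicate 2 and after a median-ratio scaling. This scaling divides each library by its median ratio over 4145 genes present throughout.

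**Figure D1:**
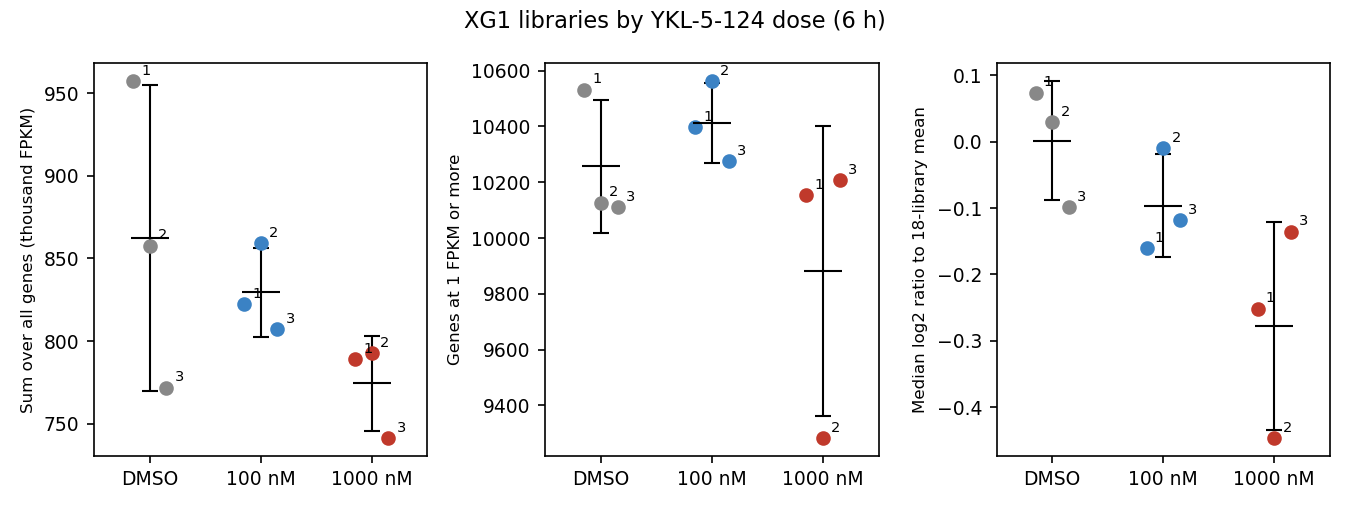
Each XG1 library by dose, numbered by replicate: summed FPKM of all genes, genes at 1 FPKM or more, and the median log2 ratio to the 18-library mean; the line and bar are mean and SD (n = 3). Replicate 2 at 1000 nM has 9284 genes at 1 FPKM or more and a median log2 ratio of -0.45, the lowest of the 9 libraries in both.

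Going to 1000 nM, 17 of the 12204 genes fell (0.139%) and 0 passed the test as higher. At an unadjusted p under 0.05 limma gave 1929 lower and 66 higher genes, and the smallest adjusted p among higher genes was 0.0624. The genes that fell included RFC4, a loader of the replication clamp, UBE2T, an enzyme of interstrand crosslink repair, and ING3, a chromatin reader. The whole distribution lay low, with a median log2 difference of -0.18 (-0.09 without 1000 nM replicate 2). After median-ratio scaling the median was -0.04, 12 genes were called, all lower, and 9 of these were among the 17. All 3 libraries at 1000 nM lay below all 3 at 100 nM for 2014 genes (16.5%) and above them for 121 genes (0.991%). The scaling brought these counts to 1116 lower (9.14%) and 482 higher (3.95%). Every one of the 17 called genes was among the non-overlapping lower genes, with and without the scaling.

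The calls rested on few libraries. Without 1000 nM replicate 2 the test called 1 gene, C19orf73, named here outside the naming rule and after its values were seen, and without 1000 nM replicate 3 it called 306 lower and 4 higher. Without 1000 nM replicate 1 there were 36 lower calls and 2 higher, without 100 nM replicate 1 there were 8 lower, and without 100 nM replicate 3 there were 37 lower. Leaving out 100 nM replicate 2 gave 14 lower calls and 2 higher. A fit to the 9 XG1 libraries alone kept 0 of the 17 calls, and the 1 gene that it called was not among them.

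**Figure D2:**
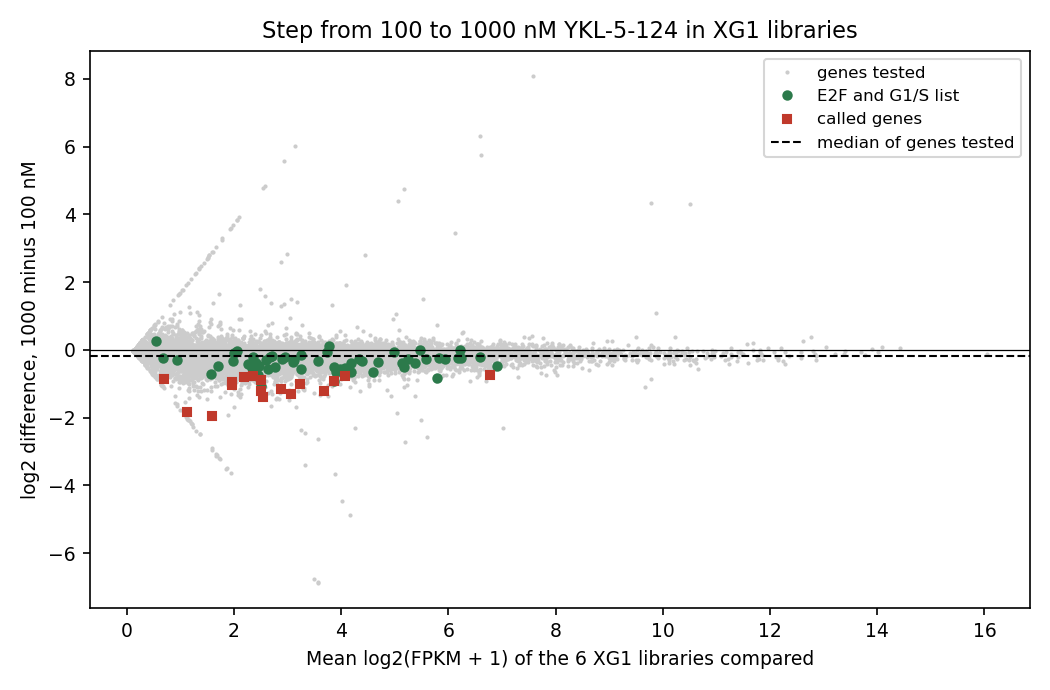
Log2 difference (1000 minus 100 nM) of each tested gene against its mean log2(FPKM + 1) over the 6 XG1 libraries; grey points are the 12204 genes tested, green points the 56 members of the E2F and G1/S list and red squares the 17 called genes. The dashed line marks the median of -0.18, and all 17 called genes lie below it.

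RFC4, a subunit of the complex that loads PCNA onto DNA, had 9.33, 9.26 and 10.1 FPKM in the 1000 nM libraries, against 15.1, 22.8 and 19.9 FPKM in the 100 nM libraries. No value at 1000 nM reached any at 100 nM, and the log2 difference was -0.92 ± 0.18 SE (adjusted p = 0.0435). The RFC4 means stepped down with dose, at 29.9 ± 4.17, 19.2 ± 3.89 and 9.58 ± 0.493 FPKM over DMSO, 100 and 1000 nM (SD, n = 3 each). Without 1000 nM replicate 2 the RFC4 difference was -0.90 with an adjusted p of 0.146. UBE2T, the ubiquitin-conjugating enzyme of the Fanconi anaemia pathway, had 84.8, 77.3 and 90.3 FPKM in the 1000 nM libraries, against 139, 151 and 131 FPKM in the 100 nM libraries. It fell by 0.73 ± 0.14 SE on the log2 scale (adjusted p = 0.0396), and its means over DMSO, 100 and 1000 nM were 207 ± 30.4, 140.2 ± 10.1 and 84.1 ± 6.51 FPKM. After scaling the UBE2T difference was -0.55 and no longer called (adjusted p = 0.0801). ING3, a subunit of the NuA4 histone acetyltransferase, had 13.1, 10.2 and 12.1 FPKM in the 1000 nM libraries, against 19.2, 24.7 and 19.5 FPKM in the 100 nM libraries. Its log2 difference was -0.79 ± 0.16 SE (adjusted p = 0.0435, 0.0526 after scaling), and the DMSO libraries were higher than both doses. RFC4, UBE2T and ING3 shared this order, with DMSO highest and 1000 nM lowest and no overlap between neighbouring doses.

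Other genes that fell stood higher at 100 nM than in DMSO. The mean at 100 nM lay above the DMSO mean for 12 of the 17, and the mean at 1000 nM lay below the DMSO mean for all 17. The comparison of each dose with DMSO shares libraries with the step between doses, so these means are a description. Calling genes for high 100 nM and low 1000 nM values by itself favours this order around DMSO. The same counts were not taken over all genes tested. CTHRC1, a secreted collagen triple helix protein, had 4.85, 2.999 and 5.47 FPKM in the 1000 nM libraries, against 16.1, 8.59 and 12.8 FPKM in the 100 nM libraries. Its means over DMSO, 100 and 1000 nM were 8.37 ± 1.74, 12.5 ± 3.78 and 4.44 ± 1.29 FPKM, with a log2 difference of -1.30 ± 0.21 SE for the step (adjusted p = 0.0185). OR2B6, an olfactory receptor gene, had 0.103, 0.461 and 1.23 FPKM in the 1000 nM libraries, against 2.98, 7.26 and 5.27 FPKM in the 100 nM libraries, beside 0.123, 1.06 and 1.899 FPKM in DMSO. OR2B6 was thus highest in the 100 nM libraries, and the step was -1.95 ± 0.30 SE (adjusted p = 0.0185). PDIA5, a disulfide isomerase of the endoplasmic reticulum, had 3.48, 3.17 and 2.93 FPKM in the 1000 nM libraries, against 7.49, 5.804 and 7.18 FPKM in the 100 nM libraries, and 4.84, 4.36 and 4.78 FPKM in DMSO. All 3 of its 1000 nM values lay below the other 6, and the step was -0.90 ± 0.15 SE (adjusted p = 0.0193). After scaling the PDIA5 difference was -0.76 and no longer called (adjusted p = 0.0801).

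HS3ST3B1, GLRX and C1GALT1C1L were also among the genes that fell. HS3ST3B1, a heparan sulfate sulfotransferase, had 1.73, 1.12 and 2.89 FPKM in the 1000 nM libraries, against 4.44, 4.93 and 4.06 FPKM in the 100 nM libraries (log2 difference -0.95 ± 0.18 SE, adjusted p = 0.0435). GLRX, the cytosolic glutaredoxin that reduces glutathionylated proteins, had 1.78, 1.37 and 2.004 FPKM in the 1000 nM libraries, against 4.401, 5.74 and 3.83 FPKM in the 100 nM libraries (log2 difference -1.05 ± 0.19 SE, adjusted p = 0.0233). Neither gene's groups overlapped, but GLRX was not among the 9 calls kept after scaling (adjusted p = 0.0691). C1GALT1C1L, a gene named for its likeness to a galactosyltransferase chaperone, was low throughout, at 0.103, 0.181 and 0.328 FPKM at 1000 nM and 1.46, 1.15 and 1.01 FPKM at 100 nM (log2 difference -0.87 ± 0.15 SE, adjusted p = 0.0193).

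A transcript with an antisense name was also among those that fell. TMEM147-AS1 had 3.31, 1.85 and 3.23 FPKM in the 1000 nM libraries, against 6.501, 8.03 and 8.54 FPKM in the 100 nM libraries, a log2 difference of -1.21 ± 0.20 SE (adjusted p = 0.0193). TMEM147 had 299, 355 and 323 FPKM in the 1000 nM libraries, against 342, 313 and 334 FPKM in the 100 nM libraries, and these groups overlapped (log2 difference -0.02). No source used here states a strand setting for the counting, so reads of a gene and its antisense partner cannot be told apart. TMEM147 was picked to stand beside its partner after values were seen, and the difference between them was not tested. PDCD6IPP2, a pseudogene that can share reads with its parent, differed by -0.81 ± 0.16 SE (adjusted p = 0.0435, 0.0801 after scaling) and is uncertain for that reason.

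**Figure D3:**
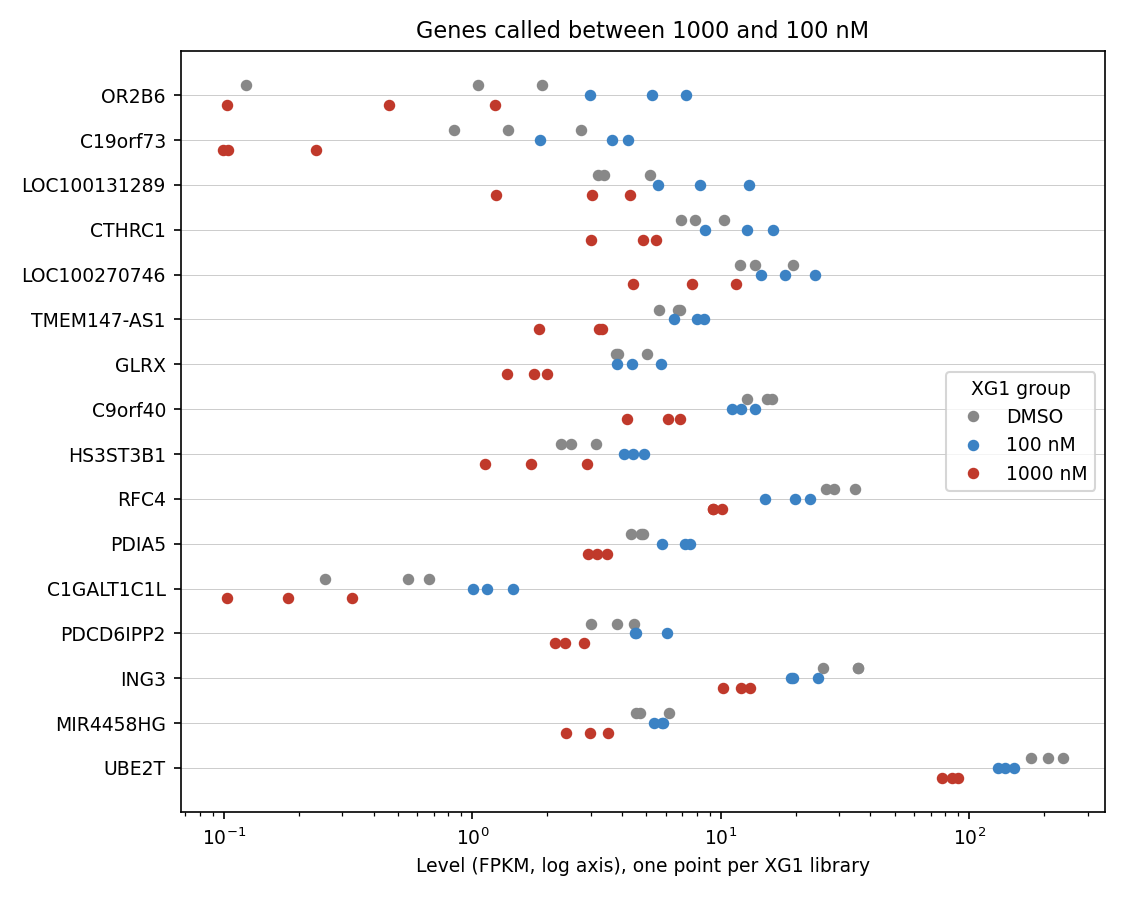
Level (FPKM, log axis) of 16 of the 17 called genes in each XG1 library, 1 point per library, grey for DMSO, blue for 100 nM and red for 1000 nM. For every gene shown the 3 red points lie below the 3 blue points, and UBE2T, at the bottom, has the highest levels.

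No gene passed the test as higher, and the nearest ones among genes with non-overlapping groups are given as values. EGR1, an immediate early transcription factor, had 79.9, 60.9 and 69.8 FPKM in the 1000 nM libraries, against 43.05, 40.6 and 42.1 FPKM in the 100 nM libraries. These groups did not overlap, yet the difference of 0.72 ± 0.25 SE missed the threshold (adjusted p = 0.175, 0.374 without 1000 nM replicate 2). EGR1 was lowest in DMSO, at 19.3, 18.95 and 15.5 FPKM, and its means over DMSO, 100 and 1000 nM were 17.9 ± 2.06, 41.9 ± 1.21 and 70.2 ± 9.49 FPKM. DEFB119, a defensin gene, had the smallest adjusted p among higher genes, at 1.08, 2.696 and 1.48 FPKM at 1000 nM and 0.656, 0.115 and 0.1203 FPKM at 100 nM (log2 difference 1.07 ± 0.24 SE, adjusted p = 0.0624). With each library left out in turn its adjusted p ran over 0.0377 to 0.301, under 0.05 without 1000 nM replicate 1 or 3 and highest without 1000 nM replicate 2. S100A1, a calcium-binding protein, was at 4.77, 1.02 and 1.18 FPKM at 1000 nM and 0.532, 0.484 and 0.122 FPKM at 100 nM (log2 difference 1.10 ± 0.27 SE, adjusted p = 0.0836). The S100A1 difference rested on 1000 nM replicate 1 and was 0.62 without it (adjusted p = 0.115), while its adjusted p ran over 0.0243 to 0.186 with each library left out and was under 0.05 only without 1000 nM replicate 3. HID1-AS1, with a difference of 0.86 ± 0.22 SE, had an adjusted p of 0.0976, and of 0.043 to 0.203 with each library left out, under 0.05 only without 1000 nM replicate 3. ZNF714, a zinc finger gene, differed by 1.34 ± 0.35 SE (adjusted p = 0.106). The remaining 7 genes nearest to a call as higher were LYPLA2P2, GS1-259H13.2, SLC45A2, DEGS2, VAV3-AS1, RAC3 and MEG9, with adjusted p of 0.114, 0.114, 0.149, 0.154, 0.163, 0.193 and 0.216 in that order. Of the genes given per library DEFB119 and S100A1 were low in level, and EGR1 was the most abundant.

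The gene lists were written with earlier results of these data known, so a count stands beside that of all genes tested and carries no test of its own. Members that the naming rule does not give were chosen as examples after their values were seen. The E2F and G1/S list had the largest share of non-overlapping lower members among the lists with at least 10 tested members. All 56 of its genes were tested, 1 was called (RFC4), and 53 had a log2 difference below 0. In 27 of them (48.2%) all 1000 nM libraries lay below all 100 nM libraries, beside 16.5% of all genes tested, and none lay wholly above. After scaling the count was 20 (35.7%), beside 9.14%, and without 1000 nM replicate 2 it was 27, beside 18.2%. The list's median log2 difference was -0.33 as deposited, -0.20 after scaling and -0.25 without that library.

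**Figure D4:**
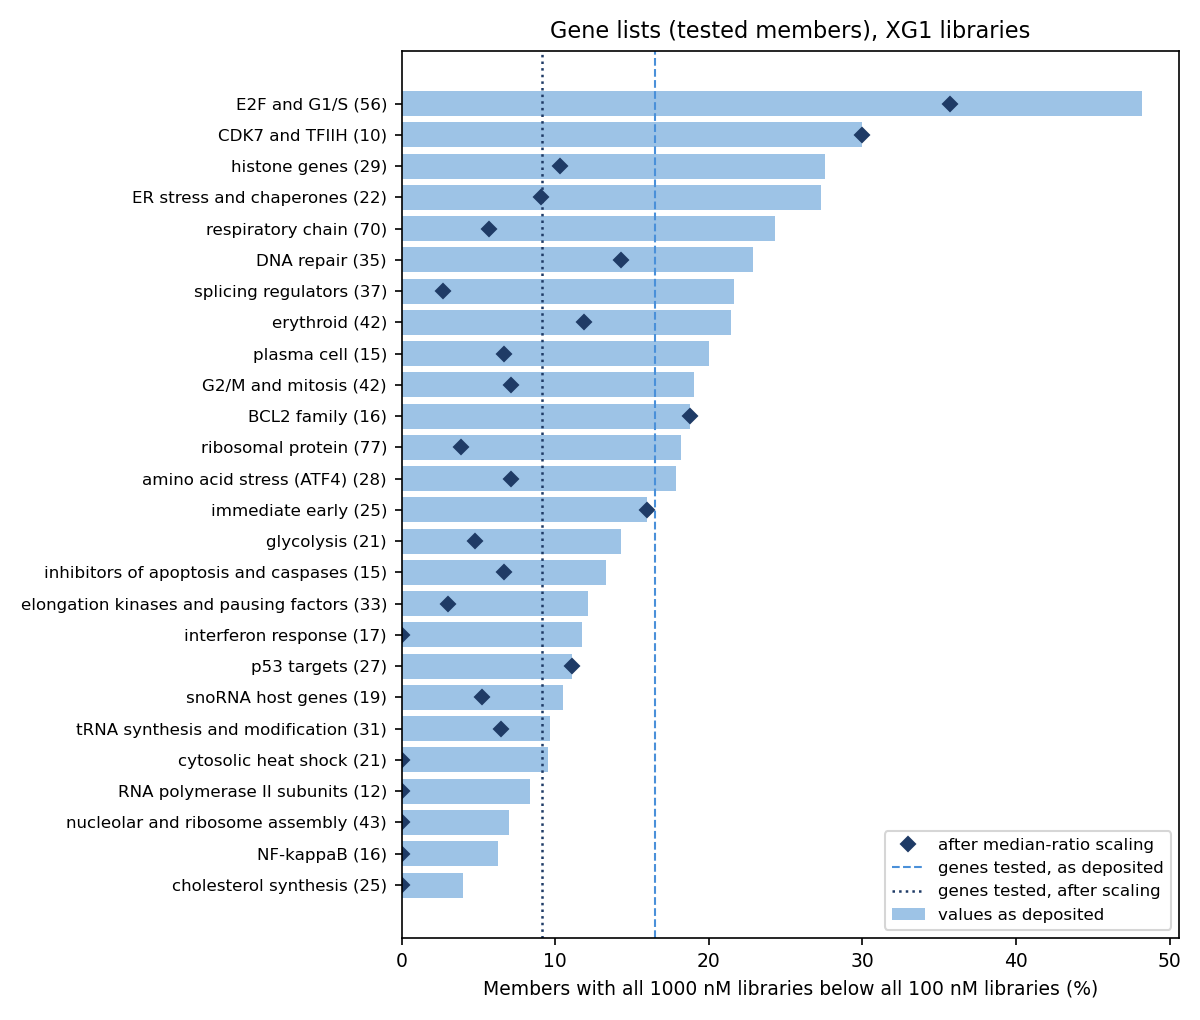
Share of each gene list's tested members (number in brackets, lists of 10 or more) for which all 3 libraries at 1000 nM lay below all 3 at 100 nM; bars are values as deposited and diamonds values after median-ratio scaling. The E2F and G1/S list has 48.2% and 35.7%, beside 16.5% and 9.14% of all genes tested (dashed and dotted lines).

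E2F factors bind a TTTCCCGC-like sequence near the start of their target genes. Promoter windows, 250 bases before to 50 after the start, were at hand from RefSeq (GRCh38.p14) for 8917 of the 12204 genes tested. They were searched for the letters TTTCCCGC and TTTGGCGC on both strands, and neither spelling contains the other. A match stood in 414 of the 8917 (4.64%) and in 797 of all 35116 windows of the table (2.27%). Of the E2F and G1/S list, 45 genes had a window and 21 (46.7%) held a match. Among the members that did not overlap 6 of 22 (27.3%) had a match, and among the other members 15 of 23 (65.2%) did. Of the called genes 12 had a window and 0 held a match, RFC4 included. The windows of 4 members are given to show a match at 3 genes that lay lower at 1000 nM and its absence at RFC4, the member that was called. Each runs 5′ to 3′ on the gene's strand over the 160 bases before its start, with the match in capitals. They lie on the minus strand at chr3:186806483-186806642 for RFC4, chr20:5126623-5126782 for PCNA, chr16:85688955-85689114 for GINS2 and chr3:48188418-48188577 for CDC25A.
RFC4: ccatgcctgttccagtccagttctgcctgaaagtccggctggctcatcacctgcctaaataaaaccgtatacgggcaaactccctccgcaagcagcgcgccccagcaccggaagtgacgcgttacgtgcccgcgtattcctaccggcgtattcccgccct
PCNA: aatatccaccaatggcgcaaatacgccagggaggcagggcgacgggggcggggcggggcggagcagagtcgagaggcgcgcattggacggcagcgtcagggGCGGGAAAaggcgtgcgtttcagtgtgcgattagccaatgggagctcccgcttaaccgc
GINS2: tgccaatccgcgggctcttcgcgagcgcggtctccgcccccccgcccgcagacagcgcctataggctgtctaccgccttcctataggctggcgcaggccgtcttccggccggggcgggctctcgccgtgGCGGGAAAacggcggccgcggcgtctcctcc
CDC25A: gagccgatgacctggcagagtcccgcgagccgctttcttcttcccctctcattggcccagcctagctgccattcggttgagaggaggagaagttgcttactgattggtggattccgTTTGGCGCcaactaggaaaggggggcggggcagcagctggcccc
The match starts 59 bases before the start of PCNA, 31 before that of GINS2 and 44 before that of CDC25A. A match is a description of letters and not a measured binding site, and no match says only that these spellings are absent from the window.

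PCNA, the sliding clamp that RFC4 helps to load, had 47.7, 28.8 and 49.3 FPKM in the 1000 nM libraries, against 56.6, 78.7 and 86.2 FPKM in the 100 nM libraries. These groups did not overlap, and the difference of -0.82 ± 0.20 SE was not called (adjusted p = 0.0833). With each library left out the adjusted p of PCNA ran over 0.0303 to 0.349, under 0.05 only without 1000 nM replicate 3 and highest without 1000 nM replicate 2. Its means over DMSO, 100 and 1000 nM were 151 ± 27.4, 73.8 ± 15.4 and 41.9 ± 11.4 FPKM, so PCNA was lower at each higher dose. GINS2, a subunit of the replicative helicase, had 29.3, 28.99 and 29.7 FPKM at 1000 nM and 37.4, 42.03 and 46.3 FPKM at 100 nM (log2 difference -0.50 ± 0.16 SE, adjusted p = 0.157). CDC25A, the phosphatase that activates CDK2, had 9.98, 8.74 and 10.01 FPKM at 1000 nM and 12.7, 13.1 and 11.01 FPKM at 100 nM (log2 difference -0.33, adjusted p = 0.387). GINS2 and CDC25A did not overlap between the doses but differed by less than PCNA.

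Across the list the replication genes lay lower by different amounts. Among polymerase subunits, POLA2 of the primase complex had 3.36, 3.92 and 2.49 FPKM at 1000 nM and 7.31, 5.94 and 5.01 FPKM at 100 nM and differed by -0.74 ± 0.19 SE (adjusted p = 0.0982). POLD3 differed by -0.54, and POLA1 by -0.03. Among licensing factors, ORC6 of the origin recognition complex had 17.97, 14.9 and 22.1 FPKM at 1000 nM and 23.7, 35.03 and 30.4 FPKM at 100 nM (log2 difference -0.67 ± 0.18 SE, adjusted p = 0.109), and CDC6, which loads the helicase, differed by -0.51. The MCM helicase subunits had smaller values, with -0.28 for MCM4, -0.26 for MCM7 and -0.07 for MCM5. UNG, the uracil glycosylase that follows replication, had 11.98, 9.36 and 11.6 FPKM in the 1000 nM libraries, against 17.1, 16.8 and 19.3 FPKM in the 100 nM libraries, and its difference of -0.65 ± 0.15 SE came closest to a call in the list after RFC4 (adjusted p = 0.0624). E2F7, a repressor of the E2F family, differed by -0.73 ± 0.20 SE (adjusted p = 0.114) and did not overlap, while E2F1 had 3.23, 1.903 and 2.57 FPKM in the 1000 nM libraries, against 4.601, 2.700 and 3.19 FPKM in the 100 nM libraries. The E2F1 groups overlapped (log2 difference -0.33 ± 0.25 SE, adjusted p = 0.518).

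RRM2, the small subunit of ribonucleotide reductase, had 14.5, 14.2 and 15.8 FPKM in the 1000 nM libraries, against 18.4, 20.3 and 20.4 FPKM in the 100 nM libraries. Its groups did not overlap (log2 difference -0.39 ± 0.14 SE, adjusted p = 0.183), and its means over DMSO, 100 and 1000 nM were 36.4 ± 1.45, 19.7 ± 1.12 and 14.9 ± 0.861 FPKM. Nucleotide synthesis genes on the list did not all share this. TYMS differed by -0.46 with overlapping groups, and TK1, thymidine kinase, by -0.01. Cyclin genes differed by -0.54 for CCNE1, -0.24 for CCND3 and 0.27 for CCND1, and CDK4 by 0.00. CCND1 was low, with a mean log2(FPKM + 1) of 0.55 over the 6 libraries, beside 4.08 for CCNE1 and 6.24 for CCND3. CDK4, POLA1 and TK1 thus had differences near 0, while of these cyclin genes only CCND1, low in level, lay above it.

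DNA repair and mitosis lists had shares of non-overlapping members closer to that of all genes (16.5%, 9.14% after scaling). Of 35 tested DNA repair genes 0 were called and 8 did not overlap on the lower side (22.9%, 14.3% after scaling), with a median of -0.31. EXO1, a nuclease of mismatch repair, had 2.72, 3.503 and 3.97 FPKM at 1000 nM and 5.77, 5.24 and 4.71 FPKM at 100 nM (log2 difference -0.51, adjusted p = 0.148), and MSH6, which recognises mismatches, had 8.11, 7.101 and 8.94 FPKM at 1000 nM and 10.4, 12.9 and 10.6 FPKM at 100 nM (log2 difference -0.44). RAD54L, of recombination, differed by -0.70, the largest in the list. Of 42 G2/M and mitosis genes 0 were called and 8 did not overlap (19.0%, 7.14% after scaling), with a median of -0.24. CENPA, the centromeric histone, had 3.86, 1.88 and 8.18 FPKM in the 1000 nM libraries, against 9.36, 11.1 and 11.2 FPKM in the 100 nM libraries, and its difference of -1.19 ± 0.28 SE was not called (adjusted p = 0.0757). CDK1, the mitotic kinase, differed by -0.42 without overlap, while MKI67 and TOP2A, markers of dividing cells, differed by -0.02 and 0.19. Mitotic genes thus ran from CENPA, lower at 1000 nM in each library, to TOP2A, with a difference above 0.

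Histone genes went both ways. Of 29 tested 0 were called, 8 did not overlap on the lower side (27.6%) and 2 on the higher side (6.897%), beside 16.5% and 0.991% of all genes tested. After scaling these were 3 each (10.3%), beside 9.14% and 3.95%. HIST1H1C, a linker histone, had 219, 213 and 258 FPKM at 1000 nM and 278, 299.5 and 379 FPKM at 100 nM (log2 difference -0.46 ± 0.15 SE, adjusted p = 0.149), and HIST2H2BE differed by -0.64. HIST1H2BJ had 4.25, 0.692 and 3.59 FPKM at 1000 nM and 0.105, 0.631 and 0.6796 FPKM at 100 nM, higher at 1000 nM in every library but not called (log2 difference 1.25 ± 0.56 SE, adjusted p = 0.288). Members of the histone families share sequence, so counts can be split between them.

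The genes of the drug's target and of transcription itself were not called. CDK7 had 7.22, 7.04 and 10.5 FPKM in the 1000 nM libraries, against 9.13, 11.2 and 11.1 FPKM in the 100 nM libraries, with overlapping groups and a difference of -0.32 ± 0.20 SE (adjusted p = 0.418). Its cyclin, CCNH, differed by -0.63 ± 0.28 SE (adjusted p = 0.281), also with overlap. MNAT1, the assembly factor of the trimer, had 12.1, 4.49 and 10.4 FPKM in the 1000 nM libraries, against 12.96, 15.8 and 16.4 FPKM in the 100 nM libraries. These MNAT1 values did not overlap (log2 difference -0.77 ± 0.26 SE, adjusted p = 0.163). Of the 10 CDK7 and TFIIH genes 3 did not overlap on the lower side (30.0%), MNAT1, GTF2H5 and GTF2H3, beside 16.5% of all genes tested. The same number did so after scaling, beside 9.14% of all genes tested. Of 12 RNA polymerase II subunit genes 1, POLR2H, did not overlap on the lower side (8.33%, beside 16.5%), and the median was -0.02. After scaling 0 lay wholly lower and 3 wholly higher (25.0%), beside 9.14% and 3.95% of all genes tested, and the median was 0.15. POLR2A, the largest subunit, had 70.6, 72.3 and 64.8 FPKM in the 1000 nM libraries, against 77.9, 64.9 and 70.9 FPKM in the 100 nM libraries, overlapping and -0.04 apart on the log2 scale (0.14 after scaling).

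Among 33 genes of elongation kinases and pausing factors 4 did not overlap on the lower side (12.1%), beside 16.5% of all genes tested. After scaling 1 did, HEXIM1 (3.03%, beside 9.14%). HEXIM1, which holds the elongation kinase CDK9 inactive in the 7SK complex, had 13.9, 7.13 and 12.7 FPKM in the 1000 nM libraries, against 19.1, 19.7 and 23.4 FPKM in the 100 nM libraries (log2 difference -0.87 ± 0.23 SE, adjusted p = 0.0976). Its means over DMSO, 100 and 1000 nM were 18.5 ± 5.25, 20.7 ± 2.32 and 11.2 ± 3.61 FPKM. CDK12, a kinase of elongating polymerase, had 5.64, 3.903 and 5.64 FPKM in the 1000 nM libraries, against 5.26, 5.56 and 5.099 FPKM in the 100 nM libraries, which overlapped. The CDK12 difference was -0.07, 0.08 after scaling, and its DMSO libraries had 13.8, 10.97 and 11.00 FPKM.

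MYC had 20.6, 9.52 and 17.4 FPKM in the 1000 nM libraries, against 26.7, 26.4 and 26.3 FPKM in the 100 nM libraries. The groups did not overlap, replicate 2 at 1000 nM was the lowest, and the difference of -0.77 ± 0.29 SE was not called (adjusted p = 0.212). Without that library it was -0.46 (adjusted p = 0.753). The MYC means over DMSO, 100 and 1000 nM were 59.02 ± 20.6, 26.5 ± 0.196 and 15.8 ± 5.69 FPKM. Of the 9 tested genes of the MYC network MYC and MLX, a partner in the network, did not overlap on the lower side (22.2%, beside 16.5%). Of 25 tested immediate early genes 4 did not overlap on the lower side (16.0%) and 2 on the higher side (8.0%), beside 16.5% and 0.991% of all genes tested. ZFP36, which destabilises mRNAs, had 4.09, 0.502 and 1.84 FPKM at 1000 nM and 6.198, 5.86 and 5.72 FPKM at 100 nM (log2 difference -1.31 ± 0.42 SE, adjusted p = 0.1602). ATF3, a stress-induced repressor, differed by -0.90 and DUSP6, a phosphatase of ERK, by 0.29, both without overlap. These genes, together with EGR1, lay on both sides of 0, and the list's median was -0.07.

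Genes of ribosome production, respiration and RNA processing had medians near that of all genes. Nucleolar and ribosome assembly genes had 3 of 43 non-overlapping lower members (6.98%), 0 after scaling, and a median of -0.12. PPAN, of large subunit assembly, did not overlap on the higher side, at 18.1, 14.7 and 15.9 FPKM at 1000 nM and 12.6, 14.2 and 10.04 FPKM at 100 nM (log2 difference 0.38 ± 0.15 SE, adjusted p = 0.231). Cytosolic ribosomal protein genes had 14 of 77 (18.2%), 3 after scaling, and RPL23A differed most among those without overlap, at -0.57 ± 0.14 SE (adjusted p = 0.0814). Nuclear genes of the respiratory chain had 17 of 70 (24.3%), 4 after scaling, with SDHB, of succinate dehydrogenase, at -0.62 ± 0.19 SE (adjusted p = 0.131). Splicing regulators had 8 of 37 (21.6%), 1 after scaling, TRA2B at -0.45. For these 3 lists the share after scaling was below the 9.14% of all genes tested. Of 31 tRNA synthesis and modification genes 3 did not overlap on the lower side (9.68%), and of 19 snoRNA host genes 2 did (10.5%). Over all genes tested this share was 16.5%.

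SNHG12, a host of small nucleolar RNAs, and METTL1, the tRNA guanine methyltransferase, were already low at 100 nM. SNHG12 had 14.1, 9.57 and 17.3 FPKM in the 1000 nM libraries, against 14.3, 19.2 and 16.6 FPKM in the 100 nM libraries, beside 76.98, 66.9 and 82.4 FPKM in DMSO. Its doses overlapped, with a difference of -0.30 ± 0.20 SE (adjusted p = 0.47). METTL1 had 6.89, 8.995 and 7.13 FPKM in the 1000 nM libraries, against 11.4, 8.19 and 8.85 FPKM in the 100 nM libraries, beside 36.00, 33.6 and 38.05 FPKM in DMSO, and its doses also overlapped (-0.27 ± 0.19 SE, adjusted p = 0.494). ATF4, which switches on genes of amino acid supply under stress, had 43.2, 47.6 and 47.5 FPKM in the 1000 nM libraries, against 48.4, 47.7 and 41.01 FPKM in the 100 nM libraries, and its difference was 0.02. Of the 28 tested genes of its pathway 5 did not overlap on the lower side (17.9%, 7.14% after scaling), with PSPH, of serine synthesis, at -0.79 ± 0.22 SE (adjusted p = 0.114). Endoplasmic reticulum stress and chaperone genes had 6 of 22 (27.3%, 9.09% after scaling), and cytosolic heat shock genes 2 of 21 on the lower side and 2 on the higher side (9.52% each). Over all genes tested the lower share was 16.5% (9.14% after scaling) and the higher share 0.991%.

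Survival genes were not called. MCL1, an antiapoptotic BCL2 family member, had 116, 115 and 109 FPKM in the 1000 nM libraries, against 114, 123 and 133 FPKM in the 100 nM libraries, with overlapping groups and a difference of -0.11 (0.07 after scaling). Of 16 tested BCL2 family genes 3 did not overlap on the lower side (18.8%, near the 16.5% of all genes tested), PMAIP1, BCL2L2 and BCL2L11, at -0.44, -0.41 and -0.37. Of these, PMAIP1 and BCL2L11 promote cell death and BCL2L2 opposes it. BCL2L2 was low, with a mean log2(FPKM + 1) of 0.66 over the 6 libraries. Of 15 tested caspase and inhibitor of apoptosis genes 2 did not overlap on the lower side (13.3%), CASP8 at -0.81 and CYCS, cytochrome c, at -0.33. Of 27 tested p53 target genes 3 did not overlap on the lower side (11.1%), XPC, PMAIP1 and PPM1D, and the median was -0.20.

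Erythroid genes, abundant in these libraries, were not called. Of 42 tested 9 did not overlap on the lower side (21.4%, 11.9% after scaling), beside 16.5% and 9.14% of all genes tested. The median of the erythroid genes was -0.25. RHAG, the Rh-associated membrane protein, had 80.2, 57.9 and 88.5 FPKM at 1000 nM and 104, 118 and 138 FPKM at 100 nM (log2 difference -0.68 ± 0.19 SE, adjusted p = 0.114), and CPOX, of heme synthesis, differed by -0.62 ± 0.20 SE (adjusted p = 0.149). GATA1, the lineage's transcription factor, had 21.1, 15.9 and 20.4 FPKM in the 1000 nM libraries, against 20.02, 18.7 and 22.3 FPKM in the 100 nM libraries, with overlap. HBG1, a fetal globin gene, had 1186, 1216 and 1299.8 FPKM in the 1000 nM libraries, against 1218, 1303 and 1294 FPKM in the 100 nM libraries, also with overlap as deposited, and its 1000 nM libraries lay wholly above after scaling. The differences of GATA1 and HBG1 were -0.09 and -0.04 as deposited and 0.08 and 0.14 after scaling. HBG1 and HBG2 are near-identical copies, so their counts are uncertain. Plasma cell genes, 15 tested and mostly low, had 3 non-overlapping lower members (20%), among them DERL3, of protein disposal, at -0.71 ± 0.24 SE (adjusted p = 0.176).

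Other lists had few non-overlapping members. Glycolysis had 3 of 21 (14.3%), with PFKFB4, a regulator of the pathway, at -0.64. Cholesterol synthesis had 1 of 25 (4.0%), NF-kappaB 1 of 16 (6.25%) and the interferon response 2 of 17 (11.8%). The T cell and myeloid markers had 1 of 6, LYZ, at -0.65, and the stromal and epithelial markers 1 of 5, EPCAM, at -0.66. The B cell markers had 0 of 2. Each of these shares stood on a small number of tested genes, and 16.5% of all genes tested did not overlap on the lower side.

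The same step in AMO1 called 22 genes (0.180%), of which 18 were lower (0.147%) and 4 higher, and its median log2 difference was -0.11. Leaving out libraries moved the AMO1 count to 4, 17 and 2 without 100 nM replicates 1, 2 and 3, and to 4, 7 and 2 without 1000 nM replicates 1, 2 and 3. UBE2T was the 1 gene called in both lines, and its XG1 call was lost without 1000 nM replicate 2 (log2 difference -0.67, adjusted p from limma = 0.146). It had 66.4, 82.2 and 79.1 FPKM in the AMO1 libraries at 1000 nM and 148, 123 and 133 FPKM in those at 100 nM (log2 difference -0.82 ± 0.14 SE, adjusted p = 0.0156), and the XG1 minus AMO1 difference of its steps was 0.09 ± 0.19 (SE, adjusted p = 0.989). RFC4 had 17.2, 18.8 and 16.2 FPKM in the AMO1 libraries at 1000 nM and 22.4, 22.3 and 31.2 FPKM in those at 100 nM, not called in AMO1 (-0.50 ± 0.18 SE, adjusted p = 0.299). A test of the difference between the lines' steps called 1 of 12204 genes (0.00819%), the small nucleolar RNA SNORA30, which the naming rule does not give and which lay under 1 FPKM in XG1 at both doses. METTL1 was called in AMO1, at 7.36, 6.23 and 6.901 FPKM in the AMO1 libraries at 1000 nM and 20.1, 22.3 and 17.2 FPKM in those at 100 nM (log2 difference -1.41 ± 0.19 SE, adjusted p = 0.00283), and not in XG1. The METTL1 steps differed by 1.14 ± 0.27 (XG1 minus AMO1, SE), which did not pass the test of the difference (adjusted p = 0.464). CTHRC1 and OR2B6, which fell in XG1, were under 1 FPKM in every AMO1 library at both doses. At that level AMO1 could not show a fall of the same size. Their steps differed between lines by -1.35 ± 0.30 and -1.96 ± 0.43 (SE, adjusted p = 0.439 for both). The main fit pools the spread over both lines, so these low AMO1 values also enter the p-values of the XG1 step. In a limma fit to the XG1 libraries alone that adjusted p was 0.213 for CTHRC1 and 0.230 for OR2B6.

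The E2F and G1/S list lay low in both lines. Its median log2 difference was -0.33 in XG1 and -0.25 in AMO1, and 27 of the 56 members in XG1 and 21 in AMO1 did not overlap on the lower side. In AMO1 this was 37.5% of the list, beside 19.3% of all genes tested. Other lists had larger shares in AMO1, with 57.1% for cytosolic heat shock and 47.6% for G2/M and mitosis. Splicing regulators had 45.9% and amino acid stress genes 39.3%, so the E2F and G1/S share did not stand out in that line. Shares after scaling were not taken in AMO1. No member was called in the test of the difference. PCNA had 75.8, 77.9 and 69.00 FPKM in the AMO1 libraries at 1000 nM and 125, 127 and 121 FPKM in those at 100 nM, a log2 difference of -0.74 ± 0.20 (SE, adjusted p = 0.158), and its steps differed between lines by -0.08 ± 0.28 (SE). MYC had 10.6, 14.5 and 12.3 FPKM in the AMO1 libraries at 1000 nM and 23.99, 19.3 and 23.9 FPKM in those at 100 nM, a difference of -0.80 ± 0.29 (SE, adjusted p = 0.306). EGR1 in AMO1 overlapped between doses, with 0.02 ± 0.25 (SE), and its steps differed by 0.70 ± 0.35 (SE, adjusted p = 0.907). Among the mitotic genes 8 of 42 did not overlap in XG1 and 20 of 42 (47.6%) in AMO1, with 0 called in the test of the difference.

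**Figure D5:**
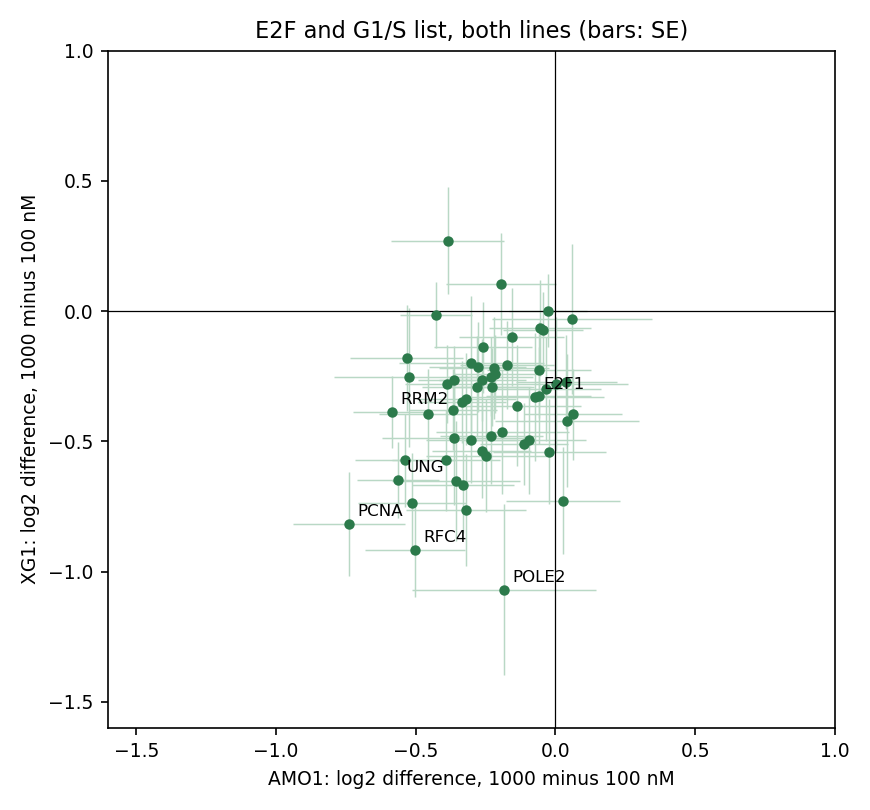
Log2 difference (1000 minus 100 nM) of the 56 E2F and G1/S genes in XG1 (vertical) and AMO1 (horizontal), 1 point per gene with SE bars. Most points lie below 0 on both axes, with medians of -0.33 in XG1 and -0.25 in AMO1, and PCNA and RFC4 lie toward the lower left.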

How the data were processed

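RNA was measured in 18 libraries of 6 groups of 3, by line and dose, all at 6 h. Per the labels' protocols, cells were lysed in TRIzol and QuantSeq libraries were prepared, whose reads come from the 3′ ends of polyadenylated RNA. HISAT2, Cuffnorm and the build hg19 are what the authors worked with, per the submitters' processing notes; their versions, the annotation and the strand setting are not stated there. The deposited values are taken as FPKM because those notes name Cuffnorm. This unit scales by transcript length, although 3′ end reads do not grow in number with length. Depth is unknown and no interval for counting error was set.

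The genes that averaged 1 FPKM or more in any group were tested, 12204 of 26249, leaving out 92 spike-ins. Differences were tested two-sided with limma 3.58.1 under R 4.3.3 (with statmod 1.5.0), on log2(FPKM + 1) with its trend and robust options. All 18 libraries entered the same fit with a mean for each group. Benjamini-Hochberg adjustment covered all 12204 genes, with calls at adjusted p under 0.05. The script was tested on simulated data with independent noise. That simulation had no shift of whole libraries and no library standing apart, so it cannot show how such features affect the calls. Median-ratio scaling, chosen after the data were seen, used 4145 genes at 5 FPKM or more in every library. Non-overlapping means that all 3 libraries of 1 group lie on the same side of all 3 of the other. No library pair was identical, and log2 values correlated across genes at 0.955 to 0.961 within the 1000 nM group, 0.959 to 0.960 within the 100 nM group and 0.944 to 0.965 between them.

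The comparison, the 30 gene lists and the genes always reported were chosen with earlier results of these data known. Named genes were the 12 largest falls and rises among called, non-overlapping genes. Where fewer were called, they were filled up to 12 by the smallest p among non-overlapping genes not called and given as such. Up to 4 called members per list and direction and 16 genes always reported were also named. Small RNA, ribosomal RNA and uncharacterised symbols were counted but not named. Values of a few genes are not reported here. The alternatives were other pseudocounts, filters, scalings, sets of libraries and variance models, a replicate block, and leaving out each library of the groups compared.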

Additional observations from a re-analysis of the deposited data

Results flagged for a closer look

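The step with dose differed between the lines for SNORA30, a small nucleolar RNA, by a test of the difference itself in limma. The XG1 minus AMO1 difference of the log2 steps was 4.92 (adjusted p = 1.18e-09). In XG1 it had 0.0939, 0.0699 and 0.0999 FPKM at 1000 nM and 0.0985, 0.108 and 0.106 FPKM at 100 nM. In AMO1 it had 0.0788, 0.0805 and 0.0901 FPKM at 1000 nM, against 50.8, 24.2 and 27.0 FPKM at 100 nM, and its DMSO mean was 0.109 FPKM. The AMO1 100 nM libraries thus stood apart in all 3 replicates. Its XG1 values overlapped between the doses. What set the AMO1 values was not tested. The fit pools the spread over all 18 libraries, so the very low values of other groups enter this adjusted p. Depth is unknown for this small RNA, and the difference rests on the AMO1 100 nM group.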

How the results depend on the processing

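The count of 17 lower calls in XG1 was 60 with a pseudocount of 5 FPKM, 31 with a minimum of 5 FPKM, 0 after centring each library on its median, 10 after quantile normalization and 32 after spike-in scaling. A fit to the XG1 libraries alone gave 1 lower call and a fit to the 6 libraries compared gave 1, and both fits kept 0 of the 17. The count was 3 after median-ratio scaling without 1000 nM replicate 2, with 2 of the 17 kept, and 1 to 306 when leaving out each library in turn. The 0 higher calls became 3 without a filter, 1 in the fit to the 6 libraries, 2 after scaling without that replicate, and 0 to 4 with each library left out. In AMO1 the 22 calls became 13 with a pseudocount of 0.1 FPKM, 37 with 5 FPKM, 2 in a fit to the AMO1 libraries alone, 13 in a fit to its 6 libraries compared and 2 to 17 with each library left out. The 1 difference between lines became 2 in a fit to the 12 treated libraries, 4 after median-ratio scaling and 1 to 6 with each library left out. With the replicate block there were 4 lower calls in XG1, all among the 17, 4 calls in AMO1 and 2 differences. Deviations of same-numbered libraries from their group means correlated at -0.02, -0.05 and 0.03 in XG1 and at -0.01, 0.03 and 0.07 in AMO1. No line had every library correlate best with its own number, though AMO1 1000 nM replicates 2 and 3 did. AMO1 100 nM replicate 2 instead correlated best with 1000 nM replicate 1, at 0.085. Deviations from means of 3 libraries cannot decide whether same-numbered libraries belong together. Among named genes those close to 0 reversed. After centring, quantile normalization and median-ratio scaling, in that order, the log2 difference was 0.135, 0.0154 and 0.0652 for MCL1, 0.213, 0.148 and 0.142 for POLR2A, 0.179, 0.209 and 0.0801 for CDK12, 0.162, 0.129 and 0.0842 for GATA1 and 0.206, 0.0856 and 0.137 for HBG1. With median-ratio scaling and without 1000 nM replicate 2 it was 0.00831 for SNHG12, 0.0269 for POLR2A, 0.159 for CDK12, 0.125 for GATA1 and 0.0629 for HBG1. ATF4 was at -0.000671 after spike-in scaling. With each library left out in turn ATF4 ranged over -0.0592 to 0.0602, POLR2A over -0.102 to 0.0284, CDK12 over -0.144 to 0.0747 and GATA1 over -0.16 to 0.0323. Where a fit had fewer libraries or genes its own construction differs; for the other settings the cause was not tested. The fit to the libraries of the line is the same as the main one for the difference and has no value of its own. The 12 called genes that the naming rule gives kept their direction under every setting in which they were tested. Unknown depth limits what can be said of low genes.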

Other observations

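The largest differences between 1000 and 100 nM in XG1 were not among the calls. A log2 difference of at least 2 in size was seen for 74 tested genes, 36 lower and 38 higher at 1000 nM, and limma called 0 of them. Small RNA symbols made up 72 of the 74. Of the 74, 18 had groups that did not overlap in either direction, beside 16.5% lower and 0.991% higher among all genes tested. Picking genes by a large difference between the same groups by itself favours groups that do not overlap. Their median SE was 2.08 on the log2 scale, beside 0.198 over all genes tested. The smallest adjusted p among them, 0.0545, belonged to SNORA84, a small nucleolar RNA that differed by -6.77 ± 1.26 SE. These symbols were picked for their size after values were seen and lie outside the naming rule.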
